A study of Homo sapiens with 66 samples.

Results

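The genes examined are the integrin, laminin and collagen chain genes, the subunits of the main cell-matrix receptors and of the 2 largest families of matrix proteins. They were chosen by symbol from the protein-coding genes of the GENCODE annotation of GRCh37: ITGA, ITGB, LAMA, LAMB or LAMC followed by a number, or COL, a number, A and a number. The rule found 76 genes of 20162, of which 20 were integrin chains, 12 laminin chains and 44 collagen chains. A peak was assigned to a gene when its centre lay in the gene body or within 10 kb of the gene's transcription start site (TSS). Integrin chains with a letter in place of the number, such as ITGAV, lie outside the rule.

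The data were peak lists from chromatin immunoprecipitation and sequencing (ChIP-seq) with antibodies to 3 subunits of HIF, the hypoxia-inducible transcription factor. Its α subunits, HIF-1α or HIF-2α, are broken down when oxygen is plentiful, and each binds DNA as a dimer with HIF-1β. There were 50 ChIP libraries in 25 groups of 2, among 66 samples that also included input chromatin. In a severity and duration experiment, HKC-8 cells, a human kidney proximal tubule line, were kept for 6 h in 3% oxygen, or in 0.5% oxygen with lengths of exposure of 6 h, 16 h and 48 h. In a knockout experiment, HKC-8 cells that were wild-type (WT), had lost HIF-1α (HIF-1αKO) or had lost HIF-2α (HIF-2αKO) were kept in 0.5% oxygen for 16 h. Each KO line was a single clone carrying a CRISPR-Cas9 frameshift, so the effect of the deletion cannot be told apart from that of the clone. RCC4, a kidney cancer line that lacks the von Hippel-Lindau protein and so keeps HIF-α in normal oxygen, was examined in normoxia, and HepG2, a hepatocellular cancer line, in 0.5% oxygen for 16 h. No library analysed here used an antibody against the subunit that was deleted, so the KO genotypes were not checked in these data. The paper reports that the frameshifts ablated each subunit and shows immunoblots of the lines. Nothing in the labels says how replicate libraries were prepared relative to each other, while the paper describes its duplicates as independent ChIP-seq experiments. The p-values below come from permuting labels among these libraries and carry no claim beyond them.

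Integrins are paired α and β chains that hold cells to the matrix, and the β1 chain is shared by the collagen and laminin receptors. Laminins are trimers of an α, a β and a γ chain and form the sheet of the basement membrane together with collagen IV. Fibrillar collagens carry tension in connective tissue, and collagen XVIII is a basement membrane chain whose C-terminal fragment is endostatin. HIF is known for controlling enzymes that hydroxylate and cross-link collagen. HIF dimers recognise the hypoxia response element (HRE), whose core was searched here as ACGTG or GCGTG on both strands.

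Each list held between 237 and 8268 peaks, and 131131 of the 131425 peaks lay on the main chromosomes. The knockout experiment, RCC4 and HepG2 lists were longer, reaching 8268, 5674 and 6843 peaks, than those of the severity and duration experiment, which ended at 1790. A peak list holds no signal at uncalled places, so read depth is unknown and a missing peak may lie below the caller's limit. The HepG2 libraries labelled HIF-1α and HIF-2α did not group by antibody. Replicate 2 of HIF-1α shared 50.1% of peaks with replicate 1 of HIF-2α but 35.0% with its own replicate, each as a share of the shorter list. Replicates 1 and 2 of HIF-2α in HepG2 shared 25.9%. Overlap alone did not set HepG2 apart. In WT HKC-8 cells replicate 2 of HIF-1α shared 73.4% and 77.4% with the HIF-2α replicates and 72.9% with its own replicate. The WT HIF-2α replicates shared 85.3%. In RCC4 replicates shared 42.8% (HIF-1α) and 40.9% (HIF-2α), and libraries of different isoforms 26.8 to 39.6%. The share of peaks within 1 kb of a TSS was 6.73% and 28.7% in the HIF-1α replicates and 30.6% and 8.08% in the HIF-2α replicates. Isoform results are therefore given with and without HepG2.

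Sequences at the sites described most often below are printed from GRCh37, plus strand, as 85 bases with every HRE core of the run in capitals. They show the cores closest to the middle of sites that were called in the most libraries or that differed between the KO lines.
ITGB1 site, chr10:33294648-33294732: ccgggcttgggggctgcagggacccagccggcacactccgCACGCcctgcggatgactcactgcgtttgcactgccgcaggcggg
ITGB2 site, chr21:46360094-46360178: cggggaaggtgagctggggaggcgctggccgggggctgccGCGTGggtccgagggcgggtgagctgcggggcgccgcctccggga
COL4A2 element 1, chr13:111137863-111137947: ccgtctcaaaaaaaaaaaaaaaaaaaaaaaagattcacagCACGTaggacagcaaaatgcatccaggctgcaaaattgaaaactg
COL18A1 site, chr21:46887464-46887548: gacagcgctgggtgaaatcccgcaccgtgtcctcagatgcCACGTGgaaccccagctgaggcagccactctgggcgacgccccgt
COL1A1 site, chr17:48288056-48288140: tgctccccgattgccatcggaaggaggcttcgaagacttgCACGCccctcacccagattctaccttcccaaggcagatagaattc
The core lay 38 bp from the site centre at ITGB1, 83 bp at ITGB2, 136 bp at COL4A2 element 1, 39 bp at COL18A1 and 68 bp at COL1A1. The distance at COL4A2 element 1 is beyond the window around site centres in which motifs were counted below. In that window no core was found at the COL4A2 site for HIF-2α at 3% oxygen and 6 h or at 0.5% oxygen and 48 h. At COL18A1 the cores of the 2 strands overlap as CACGTG. At the other sites lost in the HIF-2αKO line that are described below, the core nearest the centre was farther off, at 318 bp in COL26A1, 344 bp in COL12A1, 504 bp in COL5A1 and 798 bp in ITGB6. No sequence is printed for those sites.

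Most of these genes had a peak in some library, and few had one in many. A peak was called in at least 1 library at 61 of 76 members (80.3%), against 59.9% of all protein-coding genes. By family these were 18 of 20 integrin, 9 of 12 laminin and 34 of 44 collagen chain genes. The median member had a peak in 4.5 libraries and the median gene in 1. Windows of the members are long, with a median of 116 kb against 37.2 kb for all genes. Together they cover 0.357% of the genome and held 620 peaks, 0.473% of all peaks. Thus the members were called more often than the median gene and also had longer windows, and the part of window length in these counts was not tested.

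ITGB1, the β chain of the collagen and laminin receptors, had a peak in the most libraries, 36 of 50. It was followed by COL4A2, a chain of the main basement membrane collagen, with 30 libraries and by ITGB5, partner of the αv chain in a vitronectin receptor, with 21. ITGB2, the β chain of the leukocyte integrins, had 18 and ITGA1, the α chain of a collagen receptor, had 17. COL23A1, COL26A1 and LAMA4 each had 14, while COL14A1 and LAMA5 each had 13. At the other end 9 members had a peak in 1 library and 15 in none. Those with none were ITGA5 and ITGB7, LAMB2, LAMB3 and LAMC3, and 10 collagens, COL2A1, COL4A1, COL4A4, COL6A1, COL6A2, COL6A5, COL9A3, COL11A2, COL17A1 and COL20A1. ITGA5 encodes the α chain of the fibronectin receptor. COL4A1 shares a bidirectional promoter with COL4A2, the closest TSSs of the pair being 101 bp apart, and yet no peak centre lay in its window.

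**Figure D1:**
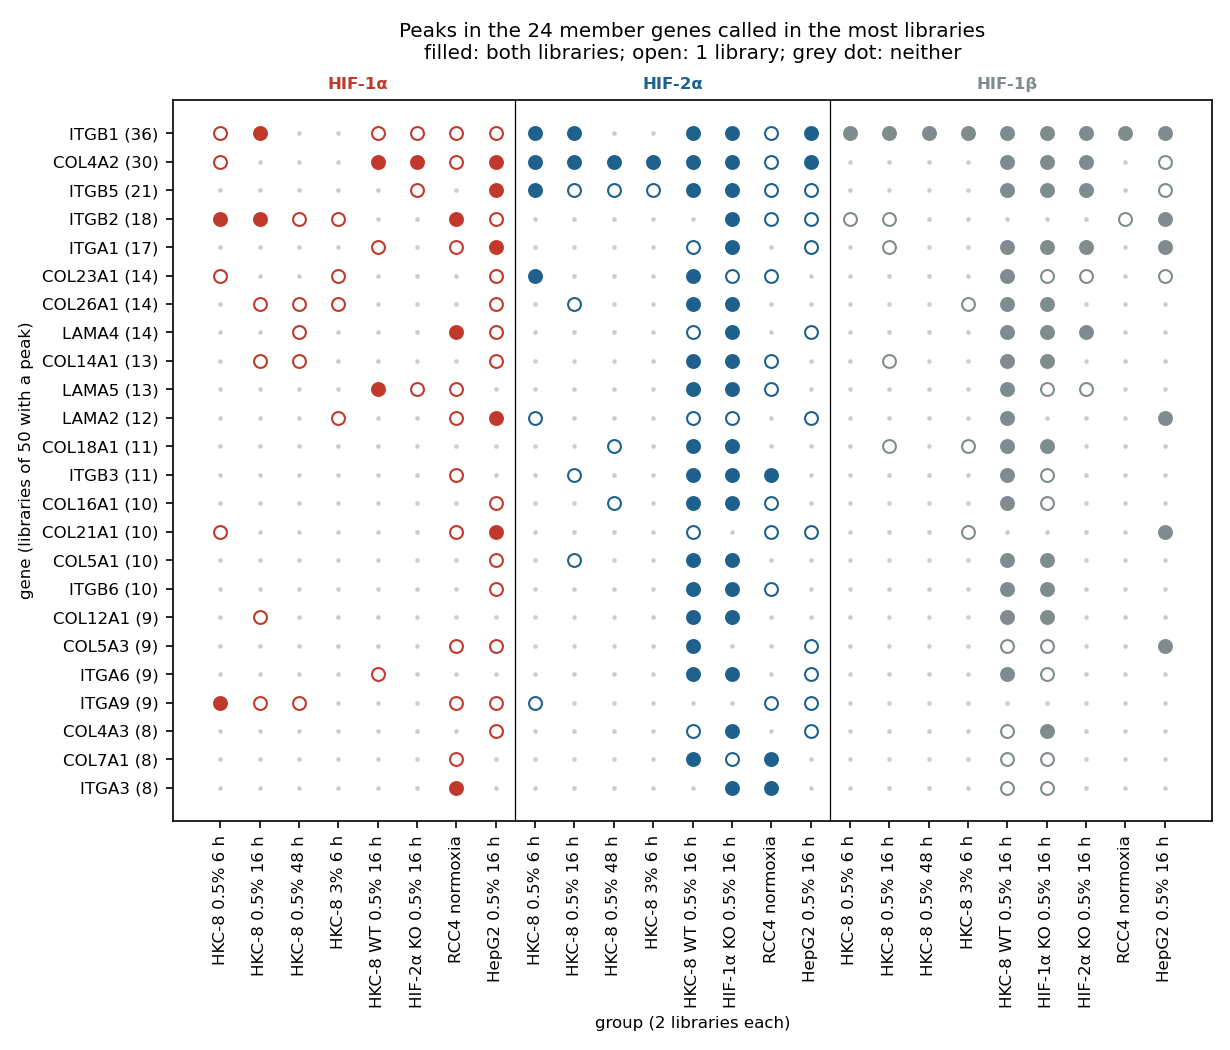
Libraries with a peak (filled circle for both, open circle for 1, grey dot for neither) in each of the 25 groups (x axis, grouped by antibody) for the 24 members called in the most libraries (y axis, number of libraries of 50 in brackets). ITGB1 is filled in all 9 HIF-1β groups, COL4A2 in all 6 HIF-2α groups of HKC-8 cells, and ITGB2 mainly under HIF-1α.

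Peaks of the members merged into 223 sites of 50169 in all. A single library carried 135 of them, 60.5% against 71.0% of all sites, and 10 sites were called in 10 or more libraries, 4.48% against 5.29% of all sites. The middle of 180 sites lay in an intron, of 9 in an exon, of 7 in a UTR, of 6 in an exon of a non-coding transcript of the gene and of 21 upstream of the gene. COL21A1, with 16 sites, had none that was called in more than 1 library, so its calls in both replicates of a group rest on different sites. COL4A2 had 11 sites, the most frequent of which was called in 25 libraries.

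Calls in both libraries of a group were then compared between the antibodies. Of the 130 calls of a member in both libraries of a group, 18 rest on a different site in each library, and these are named where they occur. In WT cells HIF-2α and HIF-1β were called at more members than HIF-1α. HIF-1α was called in both libraries at 2 members (against 4.05% of all genes), COL4A2 and LAMA5, a laminin α chain of mature basement membranes. HIF-2α was called at 18 members (against 8.84% of all genes), or 23.7% of them with an exact binomial 95% confidence interval (CI) of 14.7 to 34.8%. HIF-1β was called at 23 members (against 13.5% of all genes), or 30.3% with a CI of 20.2 to 41.9%. The WT lists also differed in length, with 1529 and 1910 peaks for HIF-1α, 4523 and 6736 for HIF-2α, and 6192 and 8268 for HIF-1β. With all 6 lists cut to their 1529 best peaks, an alternative chosen after seeing the data, HIF-1α was called at 2 members (3.82% of all genes), HIF-2α at 5 (3.26% of all genes) and HIF-1β at 4 (3.98% of all genes), so the difference in counts between the antibodies was smaller.

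Peaks were also counted per length of sequence, which adjusts for window length but not for how many TSSs that length holds. The promoter-proximal share of the WT lists (up to 1 kb from a TSS) was 20.1% and 18.3% for HIF-1α. For HIF-2α it was 6.26% and 5.80%. The part of TSS number in the densities that follow was not tested. In WT cells the member windows held 0.452 and 0.271 HIF-1α peaks per Mb, fewer than the 0.865 and 0.658 per Mb of all gene windows. They held 2.80 and 4.34 HIF-2α peaks per Mb, more than the 1.80 and 2.70 of all gene windows. In HepG2 cells HIF-1β gave 1.45 and 1.09 peaks per Mb at the members against 2.88 and 1.79 at all genes. These densities are descriptions of the lists, with no test. Of the sites called in both WT libraries, those at members were 2 of 1105 for HIF-1α (0.181%), 23 of 3802 for HIF-2α (0.605%) and 31 of 5085 for HIF-1β (0.610%).

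The 18 members called for HIF-2α in WT cells covered all 3 families: 5 integrin, 3 laminin and 10 collagen chains. The integrins were ITGA6, the α chain of laminin receptors, and the β chains ITGB1, ITGB3, ITGB5 and ITGB6. The laminins were LAMA5, LAMB1 and LAMC1, an α, a β and a γ chain that can join in a single trimer. The collagens were COL4A2 of the basement membrane, the fibrillar chains COL5A1 and COL5A3, the fibril-associated COL12A1, COL14A1 and COL16A1, COL18A1, COL7A1 of anchoring fibrils, the transmembrane COL23A1, and COL26A1. In WT cells 16 of the 18 were also called for HIF-1β (88.9%, against 92.1% of all genes called for HIF-2α), COL5A3 and COL7A1 being the others. The HIF-2α peaks of ITGB1 lay at a different site in each WT library.

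**Figure D2:**
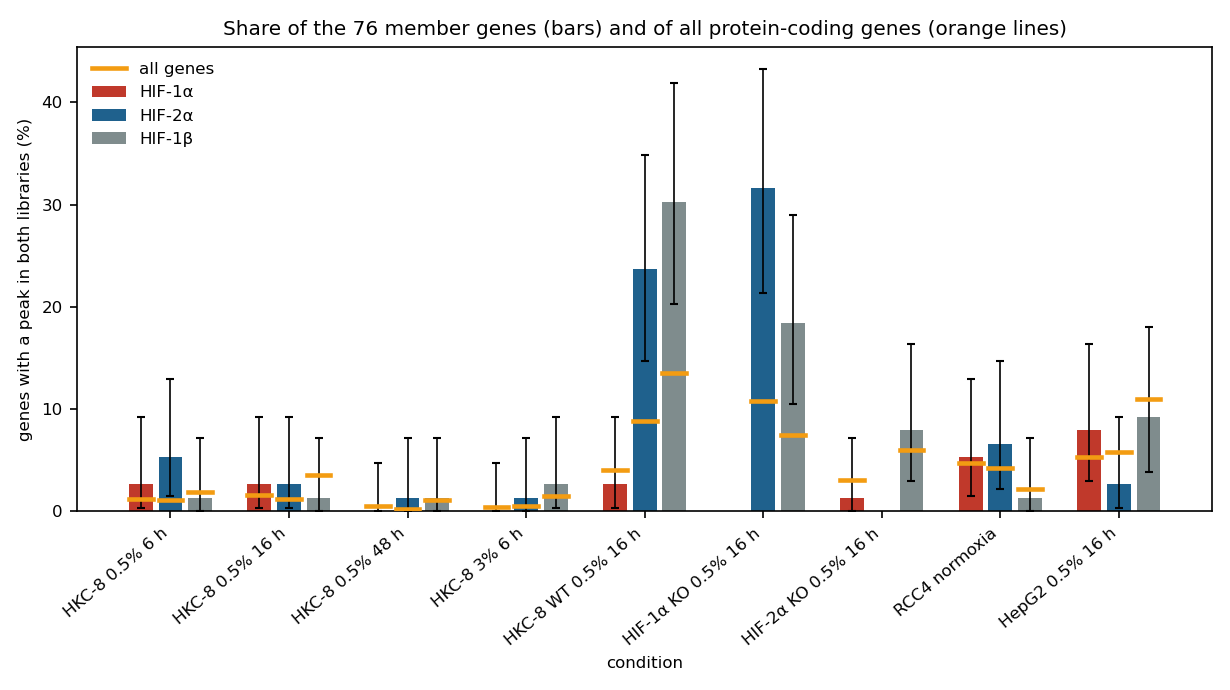
Percent of the 76 member genes with a peak in both libraries of a group (bars, y axis; whiskers, exact binomial 95% CI covering counting error only) by condition (x axis) and antibody (colour), with the percent of all 20162 protein-coding genes as orange lines. The member shares for HIF-2α in WT and HIF-1αKO cells, 23.7% and 31.6%, lie above their lines. So do those for HIF-1β in the same cells, 30.3% and 18.4%. In RCC4 and HepG2 cells every line lies within the whiskers of its bar. Member windows are longer, with a median of 116 kb against 37.2 kb for all genes.

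Site by site, neither of the 2 WT member sites called for HIF-1α in both libraries lacked HIF-2α in both, against 12.9% of all HIF-1α sites, too few to read a difference from. Of 23 HIF-2α sites, 20 had no HIF-1α peak in either library, against 62.3% of all HIF-2α sites. The best ranked of these lay in ITGB5, COL5A1, a fibrillar chain of collagen V, and ITGB6, the β chain of an epithelial receptor that activates transforming growth factor β. The other 3 were the sites of COL4A2 and LAMA5, called for HIF-1α in both libraries, and of ITGA6, called in 1. HIF-1β was called in both WT libraries at 19 of the 23 HIF-2α sites (82.6%, CI 61.2 to 95%), near the 84.2% of all HIF-2α sites.

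The KO lines were compared for the same members. HIF-1β also has partners outside the HIF family, so its peaks in a KO line need not belong to the remaining HIF-α subunit. The paper reports HIF-α signal above background at all HIF-1β sites of HKC-8 cells, in which other partners had not been induced. It also reports that HIF-1β in each KO line took a distribution around promoters like that of the remaining HIF-α subunit. In HIF-1αKO cells HIF-2α was called at 24 members (against 10.8% of all genes) and HIF-1β at 14 (against 7.40% of all genes). In HIF-2αKO cells HIF-1α was called at 1 member (against 3.00% of all genes), COL4A2, and HIF-1β at 6 (against 5.95% of all genes). Those 6 were COL1A1, the main chain of collagen I, COL4A2, ITGA1, ITGB1, ITGB5, at a different site in each library, and LAMA4. Of the 18 members called for HIF-2α in WT cells, 14 were also called for HIF-2α in HIF-1αKO cells (77.8%, against 80.9% over all genes), or 58.3% of the 24.

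HIF-1β was followed at the 31 member sites called in both WT libraries. In HIF-1αKO cells 10 of the 31 were still called in both libraries (32.3%, CI 16.7 to 51.4%), against 47.3% of all 5085 sites. In HIF-2αKO cells 5 were (16.1%, CI 5.45 to 33.7%), against 27.1% of all sites. HIF-1β had a peak in more HIF-1αKO than HIF-2αKO libraries at 19 of 31 member sites. It had a peak in fewer at 2 and in equal numbers at 10. These counts were not made over all sites, so they are not read as particular to the members. In neither HIF-2αKO library was HIF-1β called at 22 of 31 sites (71.0%, CI 52.0 to 85.8%, against 53.2% of all sites). In neither HIF-1αKO library was it called at 6 (19.4%, CI 7.45 to 37.5%, against 31.3% of all sites).

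The lengths of the lists moved with these shares. The HIF-1β lists held 3375 and 5781 peaks in HIF-1αKO cells and 2549 and 2082 in HIF-2αKO cells. With a peak in either library taken as a call, the shares were 80.6% in HIF-1αKO and 29.0% in HIF-2αKO cells, against 68.7% and 46.8% of all sites. With all 6 HIF-1β lists cut to 2082 peaks, 6 WT member sites were left, of which 3 (50%) and 2 (33.3%) were kept, against 63.5% and 57.4% of all sites. With 2 libraries against 2 no permutation p can fall below 0.333, so these shares carry no test. HIF-2α itself was kept in both HIF-1αKO libraries at 15 of its 23 WT member sites (65.2%, CI 42.7 to 83.6%), against 69.6% of all HIF-2α sites.

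Of the sites that differed between the KO lines, 5 had HIF-1β in both HIF-1αKO libraries and in neither HIF-2αKO library (16.1%, against 18.9% of all sites). Over all WT HIF-2α sites, 62.3% had no HIF-1α peak in either library. For all sites of the class just named, no such share was counted. All 5 member sites had HIF-2α in both WT libraries and HIF-1α in neither. They lay in COL5A1 (chr9:137552923-137556028, intron, 20.8 kb from the TSS), upstream of ITGB6 (chr2:161063201-161065809, 7.68 kb from the TSS), in introns of COL18A1 (chr21:46886470-46888465) and COL26A1 (chr7:101044884-101046169), and in an exon of COL12A1 (chr6:75892546-75893485), a chain that coats collagen fibrils. The COL5A1, ITGB6, COL18A1 and COL12A1 sites also had HIF-2α in both HIF-1αKO libraries, and the COL26A1 site in 1.

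The COL18A1 site, whose palindromic core is printed above, ranked variably within the lists. Its HIF-2α peaks stood at the 7.91 and 50 percentiles of the WT lists and at the 68.3 and 85.4 percentiles of the HIF-1αKO lists, 100 being the strongest peak. Its HIF-1β peaks stood at the 49.3 and 76.1 percentiles in WT and at 15.9 and 84.0 in HIF-1αKO cells. In each of these pairs replicate 2 ranked higher than replicate 1.

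The reverse pattern was seen at 1 member site (3.23%, against 6.06% of all sites). The site 9.17 kb from the TSS of COL1A1 (chr17:48286511-48289822) had HIF-1β in both WT and both HIF-2αKO libraries and in neither HIF-1αKO library. HIF-1α itself was not called there in WT or in HIF-2αKO cells. HIF-2α was called there in 1 WT and both HIF-1αKO libraries, so the calls of the α subunits did not follow those of HIF-1β at COL1A1. The lists differed in length, with 1268 and 912 HIF-1α peaks in HIF-2αKO cells against 2549 and 2082 HIF-1β peaks. A missing HIF-1α peak may thus lie below the caller's limit, which was not tested.

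HIF-1β was called in both libraries of both KO lines at 3 member sites, in COL4A2, ITGB1 and LAMA4, the laminin α chain of vessel walls, against 17.7% of all sites. It was called in neither KO line at 5 sites (16.1%, against 20.1% of all sites), in COL4A2, COL23A1, LAMA1, LAMA2 and LAMC1. LAMA3, the α chain of the main epithelial laminin, had no peak in the knockout experiment.

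**Figure D3:**
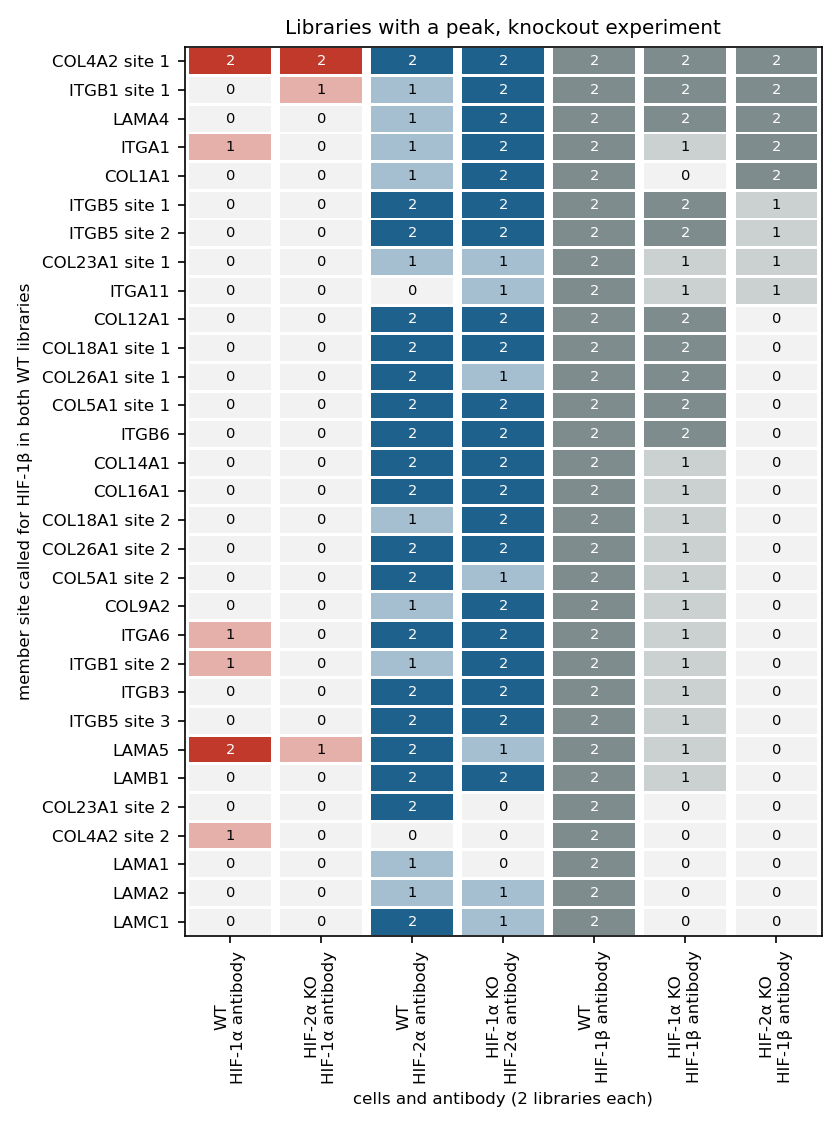
Number of libraries (0 to 2, printed in each cell) with a peak at the 31 member sites called for HIF-1β in both WT libraries (y axis), by cells and antibody in the knockout experiment (x axis), shaded by antibody. The HIF-1α columns are mostly 0, and HIF-1β is at 0 in HIF-2αKO cells at 22 of the 31 sites and in HIF-1αKO cells at 6.

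The sites with the most libraries were then examined across all experiments. The ITGB1 site (chr10:33294031-33295425) was called in 31 libraries, 17 HIF-1β, 8 HIF-2α and 6 HIF-1α. Its middle lay 0.038 kb inside the start of the gene, in an exon of a non-coding transcript, and the nearest TSS of a protein-coding transcript was 13.3 kb away. It was the only member site with HIF-1β in both libraries of WT HKC-8, RCC4 and HepG2 cells. HIF-1β was called there in 7 of 8 libraries of the severity and duration experiment, in all 6 of the knockout experiment, and in both of RCC4 and of HepG2. The highest rank was the 95.2 percentile of a severity and duration list and the lowest the 18.3 percentile of a HepG2 list. HIF-1α and HIF-2α were called there in 3 and 4 of 8 severity and duration libraries, and in 1 of 4 and 3 of 4 knockout libraries.

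The COL4A2 site (chr13:111137522-111140076, intron, 17.7 kb from the nearest protein-coding TSS of the gene) was called in 25 libraries, 13 HIF-2α, 6 HIF-1α and 6 HIF-1β. In the severity and duration experiment HIF-2α was called in 8 of 8 libraries, HIF-1α in 0 of 8 and HIF-1β in 0 of 8. The HIF-2α peaks stood at a median of the 95.2 percentile of their lists, the lowest being 25.7 and the highest 99.1, which was rank 5 of 551. In the knockout experiment all 3 antibodies gave a peak in every library, 4 of 4, 4 of 4 and 6 of 6.

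The peaks at the COL4A2 site fell into a pair of neighbouring elements with centres 1202 bp apart. Element 1 (chr13:111137894-111138188) was taken as the stretch shared by the HIF-2α peaks of 0.5% oxygen and 6 h, and element 2 as that shared by the HIF-1α peaks of HIF-2αKO cells, both set after their peaks were seen. The peaks that define an element cover it by construction. Beyond the 2 defining libraries, element 1 was covered by HIF-2α in the other 6 severity and duration and all 4 knockout libraries, and by HIF-1α in none of either experiment. HIF-1β covered it in 3 of 6 knockout and 0 of 8 severity and duration libraries. Beyond its 2 defining libraries, element 2 was covered in the other 12 knockout libraries, whichever the antibody, in 1 of 2 RCC4 libraries each for HIF-1α and HIF-2α, and in no severity and duration library. Element 1 was also covered in 1 HepG2 library labelled HIF-1α.

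The ITGB2 site (chr21:46359349-46360757) was called in 16 libraries, 9 HIF-1α, 5 HIF-1β and 2 HIF-2α. It lay 8.03 kb upstream of the TSS of ITGB2, and 0.004 kb from the TSS of SLX9, a neighbouring gene that is not a member. HIF-1α was called there in 6 of 8 severity and duration libraries, at the 49.8 to 95.6 percentiles, and HIF-2α in 0 of 8. In RCC4 cells HIF-1α was called in both libraries and HIF-2α in 1, and in HepG2 cells each in 1. No library of the knockout experiment had a peak at this site, although at 0.5% oxygen and 16 h HIF-1α was called there in both libraries of the severity and duration experiment. HIF-2α in the 2 HIF-1αKO libraries was called at another ITGB2 site, in an intron.

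The ITGB5 site (chr3:124596085-124598532) was called in 16 libraries, 8 HIF-2α, 6 HIF-1β and 2 HIF-1α, and its middle lay 0.247 kb from a TSS of ITGB5. HIF-2α was called there in all 4 knockout libraries at the 90.4 to 94.3 percentiles, in 2 of 8 severity and duration libraries and in 1 of 2 of RCC4 and of HepG2. The 2 HIF-1α libraries were both from HepG2. Without HepG2, no HIF-1α library had a peak at this site. At the ITGA1 site (chr5:52094828-52097089), called in 15 libraries, HIF-1β gave 8, HIF-2α 4 and HIF-1α 3.

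**Figure D4:**
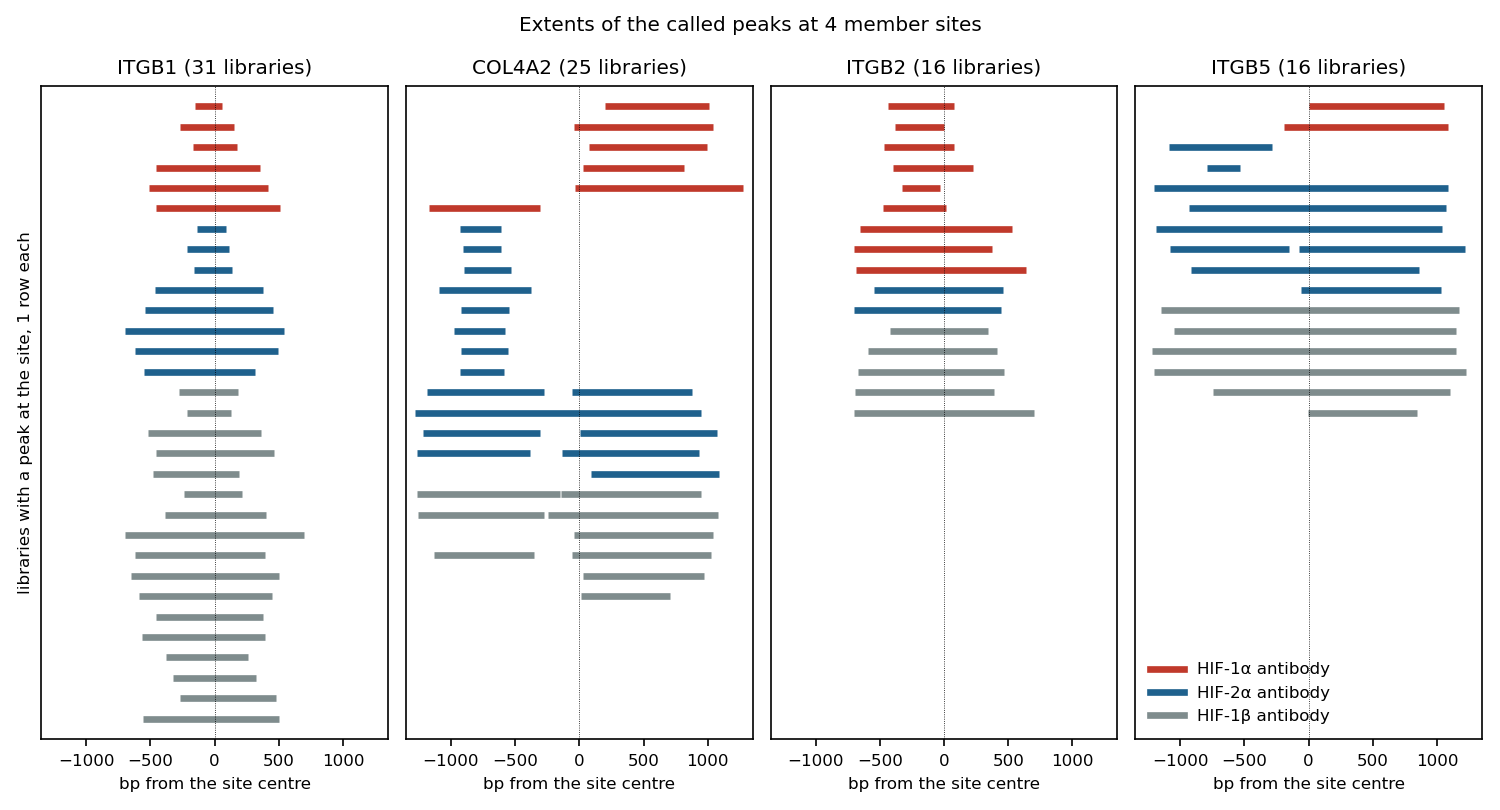
Extents of the called peaks at the ITGB1, COL4A2, ITGB2 and ITGB5 sites, in bp from the site centre (x axis), with 1 row for each library that has a peak (y axis) coloured by antibody. Peaks at ITGB1 and ITGB2 stack on 1 position, those at COL4A2 fall on elements 1202 bp apart, and the narrow HIF-2α peaks at COL4A2 lie on the left one.

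To test isoform preference over all conditions, the number of libraries with a peak was compared between HIF-1α and HIF-2α (14 libraries each) by an exact two-sided permutation test within condition, over the 1971 genes with a peak in at least 6 of the 28 libraries. At a Benjamini-Hochberg adjusted p below 0.05, 0 genes were called in either direction (0%), with 201 at an unadjusted p below 0.05 and a smallest adjusted p of 0.0845. Of the members, 14 were tested. The median difference, HIF-1α minus HIF-2α, was 0.5 libraries over these and 0 over all genes tested. COL4A2 had a peak in 6 HIF-1α and 13 HIF-2α libraries (exact permutation p = 0.0139, adjusted p = 0.256). ITGB2 had 9 and 2 (p = 0.0185, adjusted p = 0.304, exact permutation test) and ITGB5 had 2 and 9 (p = 0.0243, adjusted p = 0.374, exact permutation test). The members with an unadjusted p below 0.05 were these 3, and none passed the adjusted threshold.

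The same test over the 1494 sites in at least 6 of the 28 libraries called 7 sites with more HIF-1α (0.469%) and 28 with more HIF-2α libraries (1.87%). The 4 member sites tested, in COL4A2, ITGB1, ITGB2 and ITGB5, were not among them. The COL4A2 site had 4 HIF-1α and 11 HIF-2α libraries (exact permutation test, p = 0.0266, adjusted p = 0.171), and the ITGB2 site 9 and 2 (exact permutation test, p = 0.0185, adjusted p = 0.131). Without HepG2 the site test called 158 sites, 51 with more HIF-1α and 107 with more HIF-2α. Both member sites then passed the threshold in opposite directions, COL4A2 with 8 fewer HIF-1α than HIF-2α libraries and ITGB2 with 7 more (adjusted p = 0.0484 for each, exact permutation test). HepG2 was the only single condition left out of the site test, so the effect of leaving out another is unknown. With all conditions and the replicate number as a block, no site passed. In the severity and duration experiment alone, an alternative chosen after seeing the data, the COL4A2 site differed by 8 libraries of 8 (adjusted p = 0.0458, exact permutation test) and the ITGB2 site by 6 (adjusted p = 0.0579). At the level of genes no member passed without HepG2.

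Oxygen and time were compared in the severity and duration experiment, where few members were called. At 0.5% oxygen and 6 h, HIF-1α was called in both libraries at 2 members (against 1.18% of all genes), ITGA9 and ITGB2. HIF-2α was called at 4 (against 1.14% of all genes), COL23A1, COL4A2, ITGB1 and ITGB5, and HIF-1β at 1 (against 1.87% of all genes), ITGB1. The calls of ITGA9 for HIF-1α and of COL23A1 and ITGB5 for HIF-2α lay at a different site in each library. At 16 h HIF-1α was called at 2 members (against 1.58% of all genes), ITGB1 and ITGB2, HIF-2α at 2 (against 1.21% of all genes), COL4A2 and ITGB1, and HIF-1β at 1 (against 3.50% of all genes), ITGB1. At 48 h the numbers were 0 for HIF-1α (against 0.546% of all genes), 1 for HIF-2α (against 0.203% of all genes), COL4A2, and 1 for HIF-1β (against 1.13% of all genes), ITGB1. The HIF-2α replicate 2 list at 48 h held only 237 peaks, and the COL4A2 site was among them. At 3% oxygen and 6 h HIF-1α was called at 0 members (against 0.392% of all genes), HIF-2α at 1 (against 0.456% of all genes), COL4A2, and HIF-1β at 2 (against 1.44% of all genes), ITGB1 and COL15A1, a chain related to COL18A1. The HIF-1β calls of ITGB1 at 48 h and of COL15A1 at 3% oxygen lay at a different site in each library.

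The tests of oxygen and time were stratified by antibody and took genes with a peak in at least 4 of the 12 libraries compared. Between 3% and 0.5% oxygen at 6 h, 0 of 537 genes were called in either direction (0%), with 11 at an unadjusted p below 0.05. Between 48 h and 6 h 0 of 522 were called (0%), with 5 at an unadjusted p below 0.05, and between 16 h and 6 h 0 of 775 (0%), with 6. In this design no exact permutation p can fall below 0.00926, so few genes could pass the adjustment. The counts of 0 are therefore not read as absence of a difference. In each comparison 4 members were tested. The largest differences were at ITGB1, with 2 libraries of 6 at 3% against 5 of 6 at 0.5% oxygen, and 2 of 6 at 48 h against 5 of 6 at 6 h (exact permutation p = 0.167 for each, adjusted p = 1 for each). COL4A2 had a peak in 2 of 6 libraries at 3% and 3 of 6 at 0.5% oxygen and 6 h, and both libraries with HIF-2α were among them in each case.

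In RCC4 cells HIF-1α was called at 4 members (against 4.68% of all genes), ITGA3, ITGB2, LAMA3 and LAMA4, and HIF-2α at 5 (against 4.18% of all genes), COL7A1, COL8A1, ITGA3, ITGB3 and LAMA3. HIF-1β was called at 1 (against 2.12% of all genes), ITGB1. LAMA3 and ITGA3, α chains of an epithelial laminin and of a receptor for it, were both called for both isoforms in RCC4 cells, and neither was called in both WT HKC-8 libraries of any antibody. The HIF-1α calls of LAMA3 and LAMA4 and the HIF-2α calls of ITGA3 lay at a different site in each replicate, whereas HIF-2α was called at 1 LAMA3 site and HIF-1α at 1 ITGA3 site in both. ITGA3 was also called for HIF-2α in HIF-1αKO cells. Of the 18 members with HIF-2α in WT HKC-8 cells, 2 were shared with RCC4, COL7A1 and ITGB3. That was 11.1% of the WT calls and 40% of the RCC4 calls, against 29.9% and 63.3% over all genes. Neither rests on a site called in both libraries of both lines: the COL7A1 calls lay at different sites in the lines, and the RCC4 calls of ITGB3 at a different site in each library. ITGB1, the 1 member called for HIF-1β in RCC4, was also called in WT HKC-8 cells.

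In HepG2 cells HIF-1α was called at 6 members (against 5.28% of all genes), COL21A1, COL4A2, COL5A2, ITGA1, ITGB5 and LAMA2, and HIF-2α at 2 (against 5.76% of all genes), COL4A2 and ITGB1. HIF-1β was called at 7 (against 10.9% of all genes), COL21A1, COL5A3, ITGA1, ITGA2B, ITGB1, ITGB2 and LAMA2. Of the 23 members with HIF-1β in WT HKC-8 cells, 3 were shared with HepG2, ITGA1, ITGB1 and LAMA2. That was 13% of the WT calls and 42.9% of the HepG2 calls, against 35.6% and 44.1% over all genes. Both HepG2 calls for HIF-2α were also HIF-2α calls in WT HKC-8 cells (100%, against 37.5% over all genes). Neither rests on a site called in both libraries of both lines. The COL4A2 sites called in both libraries differed between the lines. The ITGB1 calls lay at a different site in each library of either line. In HepG2 the calls of COL21A1 and LAMA2 for HIF-1α and HIF-1β, of COL4A2 and ITGA1 for HIF-1α, and of ITGB1 for HIF-2α lay at a different site in each replicate. A peak in any library of all 3 lines was found at 16 members (21.1%, against 14.9% of all genes).

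In the tests of line, stratified by antibody against WT HKC-8 cells, 0 of 2694 genes passed for RCC4 in either direction (0%), with 293 at an unadjusted p below 0.05, and 0 of 3925 for HepG2 (0%), with 705. Of the 25 members tested in each, ITGA6 had a peak in 0 of 6 RCC4 and 5 of 6 WT HKC-8 libraries (exact permutation p = 0.0278, adjusted p = 0.227). LAMA5 had a peak in 0 of 6 HepG2 and 6 of 6 WT HKC-8 libraries (exact permutation p = 0.00926, which no gene can undercut in this design, and adjusted p = 0.107). Line, experiment and, for RCC4, oxygen cannot be told apart in these comparisons.

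Motifs were searched within 100 bp of the site centres. The HRE core was found at 10 of the 23 WT HIF-2α member sites (43.5%, CI 23.2 to 65.5%), against 47.9% of all HIF-2α sites. Windows 2 kb to either side held it in 21.7% of cases at members and 20.7% at all sites. At the 31 WT HIF-1β sites it was found at 13 (41.9%, CI 24.5 to 60.9%), against 50.2% of all sites. All 5 HIF-1β member sites of HIF-2αKO cells held it, against 67.1% of all such sites.

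The AP-1 motif, TGACTCA or TGAGTCA on both strands, was found at 0 of the 23 WT HIF-2α sites, which allows a share of up to 14.8%, against 17.5% of all HIF-2α sites and 3.62% of windows 2 kb away. Searched over the whole site, it was found at 13 of the 23 (56.5%), against 48.0% of all HIF-2α sites. At WT HIF-1β sites it was found at 4 of 31 (12.9%, CI 3.63 to 29.8%), against 16.5% of all sites. In HIF-1αKO cells it was found at 7 of 32 HIF-2α member sites (21.9%, CI 9.28 to 40%), against 18.7% of all sites. The ITGB1 run printed above holds 1 AP-1 motif next to its core. The share of WT HIF-2α member sites within 1 kb of a TSS was 8.70% (2 of 23, CI 1.07 to 28%), against 6.13% of all HIF-2α sites, and that of HIF-1β sites 3.23% (1 of 31, CI 0.0816 to 16.7%), against 12.3%.

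Of 18 collagen-modifying enzymes and chaperones, a list made with earlier results of these data known, HIF-1α was called at 8 in WT cells, HIF-2α at 6 and HIF-1β at 8, with a median window of 36.8 kb. Over all genes the shares were 4.05%, 8.84% and 13.5%, and the lists were not tested against them. PLOD2, a lysyl hydroxylase, had a peak in 48 libraries, P4HA1, a prolyl hydroxylase subunit, in 47, and LOXL2, a cross-linking enzyme, in 45, all more than ITGB1. Of 14 integrin adaptors 1, 2 and 4 were called in WT cells for HIF-1α, HIF-2α and HIF-1β, and of 7 other basement membrane genes 0 for each. Of the 6 integrin chains named without a number 0, 1 and 1 were called.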

How the data were processed

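Per the labels, the authors deposited 1 peak list per ChIP library, not pooled, with a score per peak. The submitters' processing notes name Trim Galore 0.3.3, BWA 0.7.5a-r405, SAMtools 0.1.19, bedtools 2.17.0, Picard 1.106 and MACS (version not given in the sources used here), with GRCh37. The score was read as minus 10 times the log10 of the caller's p-value. Its lowest value was 50, and it served only for ranks within a list. Inputs were not analysed as samples. Depth is not in the lists, so its limit on each call is unknown.

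Peaks were assigned to genes of GENCODE release 44 mapped to GRCh37. Sites are runs of peaks that overlap by at least 1 bp. Intervals are exact binomial at 95% (Clopper-Pearson) and cover counting error only. Exact two-sided permutation tests within strata, with Benjamini-Hochberg adjustment over all genes or sites tested, were tested on simulated data (Python 3.11.15, pandas 2.3.3, scipy 1.17.1, pysam 0.24.0, matplotlib 3.10.9). Samples were grouped by their labels. No pair of lists was identical.

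Genes were named by rule: members past the isoform threshold, the 10 with the most libraries, members with HIF-1β in both replicates of all 3 lines, the 3 best ranked sites of 1 isoform per line, the 5 best ranked sites lost in 1 KO line, families' members without a peak, and COL1A1, COL4A1, COL4A2, COL5A1, COL18A1, ITGA5, ITGB1 and LAMA3. One further gene of that set and 1 sequence are not reported here. Others complete a count and were picked with their values in view. Members and lists were chosen with earlier results of these data known.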

Additional observations from a re-analysis of the deposited data

How the results depend on the processing

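The isoform test over genes, which called 0, called 16 with peaks of a score of at least 100, 13 with the upper 50% of each list, 9 within 10 kb of the TSS only and 33 without HepG2. The site test, which called 35, called 18, 53, 0 without a filter and 158 without HepG2. Leaving out either replicate gave 0 to 0 sites, and in the gene tests 0 genes, but with 1 library left on each side of a stratum few p-values are possible and this says nothing about stability. The tests of oxygen, time and line cannot go below an unadjusted p of 0.00926, so their counts of 0 under the alternatives are limited by the design and are not read as stability. With the replicate number as a block the site test called 0 sites and the gene tests 0 genes. Replicate differences of HIF-1α and HIF-2α correlated between -0.0035 and 0.118 over genes in 6 conditions and at -0.277 in HepG2. These values do not tell whether replicates of the same number were prepared together. Crossing the HepG2 numbers in the replicate block, chosen after seeing the data, called 0 sites and 0 genes. For the test of line in RCC4 no paired fit was made, since its HIF-1β libraries carry other numbers. In the isoform tests with the block, RCC4 HIF-1α and HIF-2α libraries were paired by number. Adjusted p ranged from 0.0458 to 1 at the COL4A2 site and from 0.0484 to 1 at the ITGB2 site.

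With a peak in either replicate the shares of WT member sites kept rose from 32.3% to 80.6% (HIF-1β, HIF-1αKO) and from 65.2% to 87.0% (HIF-2α, HIF-1αKO), so that members went from below to above all sites (47.3% to 68.7%, and 69.6% to 82.3%). The member share of the latter was 40% at a score of at least 100. With a HIF-1β peak in either replicate taken as a call, HIF-1β accompanied 95.7% of WT HIF-2α member sites, against 95.7% of all such sites. Leaving out a replicate gave member shares of 35.9 to 63.5%, 58.1 to 68.8% and, for HIF-1β in HIF-2αKO cells, 15.4 to 17.9%. Shares over all sites were not counted at the higher score or without a replicate. Searched over whole sites, the HRE core was in 91.3% of WT HIF-2α and 87.1% of HIF-1β member sites and AP-1 in 56.5% and 71.0%, against 87.9% and 90.9%, and 48.0% and 48.5%, of all sites. Within 5 kb of a TSS lay 30.4% and 19.4%, against 16.0% and 23.1%. Member calls over the 25 groups, 130 in all, were 51 at a score of at least 100 and 41 within 10 kb of the TSS. For WT HIF-1α, HIF-2α and HIF-1β they were 0, 7 and 13 (against 2.36%, 5.56% and 8.81% of all genes), and 1, 5 and 6 (against 2.2%, 3.32% and 6.70%). With lists of equal length they were 2, 5 and 4 (against 3.82%, 3.26% and 3.98%). The cause of these changes was not tested. The ITGB1 isoform difference, -3 libraries by gene and -1 by site, was 0 with a score of at least 100 and with the upper 50% of each list.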
